A study of Gallus gallus with 2 samples.

Results

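The 7 complement genes described here are C1QA, C1QB, C1QC, C1S, C3, C6 and C7, found by their symbols among the 29558 features of single-cell RNA libraries from chicken peritoneum. They were chosen as complement genes of macrophages and of stroma, and all 7 were present once and detected in both libraries. The birds were Huiyang Bearded chickens (Gallus gallus), female and 40 days of age, with either a normal visceral peritoneum or hyperpigmentation of the visceral peritoneum (HVP), a dark pigmentation of the membrane that lines the abdominal organs. The labels give 10 birds a group, and each group gave 1 library, so there were no replicates, and every interval below is a 95% interval for counting error only. Cells were released with collagenase, passed through a sieve and cleared of erythrocytes, so each level describes cells that survived these steps.

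The labels of the libraries were in conflict. The library titled HVP carries files named for the normal group, and the library titled Normal carries files named for the HVP group. Below they go by these titles, as the HVP-labelled and the Normal-labelled library, and no direction between normal and hyperpigmented peritoneum was drawn from them. Barcodes with more than 500 genes were kept, 6829 of 7157 in the HVP-labelled library and 6656 of 6981 in the Normal-labelled library, with a median of 4853 and 3400.5 UMIs (unique molecular identifiers, which count captured RNA molecules) each. Among the kept barcodes 13 sequences occurred in both libraries. Levels are given as CPM, the UMIs of a gene per 1000000 UMIs of all cells of a class. The libraries read the 3′ ends of transcripts, and levels were not compared between genes.

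Complement is a cascade of proteins that marks targets for removal. C1q, built from the chains A, B and C that C1QA, C1QB and C1QC encode, binds immune complexes and damaged cells and starts the classical pathway. In mammals tissue macrophages are its main source. C1s is the protease of the C1 complex that, once activated by C1r, cleaves C4 and C2. All pathways meet at C3, whose fragments coat targets, and C6 and C7 are components that join C5b on the way to the membrane attack complex. The liver is the main source of most of these proteins in blood, while fibroblasts and macrophages in tissues also make some of them.

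The C1Q genes lie side by side on chromosome 21 of the GRCg7b assembly. C1QB (ENSGALG00010016881) was at 6056646 to 6057867, C1QC (ENSGALG00010016905) at 6059953 to 6061614 and C1QA (ENSGALG00010016920) at 6062322 to 6064372. C7 (ENSGALG00010012427) and C6 (ENSGALG00010012485) are also neighbours, on chromosome Z at 13469165 to 13489464 and 13496584 to 13523442, with 7119 bases between them. C1S (ENSGALG00010023603) was at 77328480 to 77337586 on chromosome 1, with C1R, the gene of its activating protease, 3329 bases away. C3 (ENSGALG00010003164) was at 138499 to 165753 on chromosome 30.

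Cells were clustered with the complement genes left out, and classes were named from markers among which there is no complement gene. The label of macrophages held in part. The myeloid-like class (255 cells in the HVP-labelled library and 280 in the Normal-labelled library) carried MPEG1, a pore-forming protein of phagocytes, at 578 and 543 CPM against 0.567 and 1.08 CPM in all other cells, and the macrophage scavenger receptor MARCO at 177 and 209.5 CPM against 0.936 and 1.00 CPM. Of 11 T cell markers, 5 (the HVP-labelled library) and 6 (the Normal-labelled library) had no UMI in it, CD8A and BCL11B among them, and CD3E was at 3.66 and 4.83 CPM, but CD3D was at 32.9 and 82.2 CPM, 3.08 times (1.80 to 4.93) and 1.70 times (1.26 to 2.25) the level in other cells. The part of T cells in the class was not tested. Granulocyte receptor CSF3R was present at 186 and 414 CPM, and the class was not taken to be macrophages alone. Its cells were shallow, with a median of 1592 and 1683.5 UMIs, and in the HVP-labelled library this was 32.8% of the library median. There its first marker, MPEG1, ranked 9 among the leading genes of the cluster when complement genes were left out of the ranking and 11 when they were kept. The naming rule asked a cluster this shallow for an own marker among its 10 leading genes, so the name rested on leaving complement genes out. The class called stromal-like below (4475 and 3960 cells) joins pericyte-like and smooth muscle-like cells with the fibroblast-like and tenocyte-like. Skeletal muscle genes led the smooth muscle-like cluster of the Normal-labelled library. A shallow cluster of 533 cells of the HVP-labelled library (median 1608 UMIs) had no name. It was led by the immunoglobulin-related genes IGLL1 and JCHAIN among others, but 9 blood endothelial markers met the naming rule in it.

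The C1Q genes were almost confined to the myeloid-like class in both libraries. It held 735 of 764 C1Q UMIs (C1QA, C1QB and C1QC together) in the HVP-labelled library, or 96.2% (94.6 to 97.4), and 1231 of 1298 in the Normal-labelled library, or 94.8% (93.5 to 96.0). All other cells together had 29 UMIs (0.822 CPM) and 67 UMIs (2.58 CPM). With cells of more than 1000 genes, where clusters with C1Q lost their name, the share in the Normal-labelled library was 65.2%. The level in the myeloid-like class was 1633 times (1128 to 2456) and 769.6 times (602 to 999) that elsewhere.

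All 3 chains followed this pattern. C1QA was at 245 CPM (205 to 290) in the myeloid-like class of the HVP-labelled library and 377 CPM (330.3 to 429) in that of the Normal-labelled library. C1QB was at 539 CPM (479 to 604) and 775 CPM (707 to 848). C1QC was at 559 CPM (498 to 626) and 831 CPM (761 to 906). The chains took much the same part of the C1Q UMIs in both libraries, 18.2% and 19.0% for C1QA, 40.1% and 39.1% for C1QB, and 41.6% and 41.9% for C1QC. In the few UMIs outside the class the parts were 27.6%, 34.5% and 37.9% in the HVP-labelled library and 23.9%, 38.8% and 37.3% in the Normal-labelled library, with intervals that overlapped those inside.

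Cells outside the class rarely had more than a single C1Q UMI. A C1Q UMI was found in 27 of 6574 and 46 of 6376 of them. Cells with at least 3 C1Q UMIs numbered 88 in the HVP-labelled library, all in the myeloid-like class, and 132 in the Normal-labelled library, of which 128 were in it. The other 4 were 1 T cell-like, 2 blood endothelial-like and 1 tenocyte-like cell, and 3 of these 4 had UMIs of at least 2 myeloid markers. Barcodes with 500 genes or fewer, which were left out, held 35 and 63 C1Q UMIs.

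Within the myeloid-like class the genes were unevenly spread over cells. None of the 3 genes was detected in 91 of 255 cells of the HVP-labelled library, 1 in 59, 2 in 54 and all 3 in 51. The counts of the Normal-labelled library were 86, 63, 73 and 58 of 280. The cells with all 3 were also the deepest, at a median of 2601 and 2194.5 UMIs against 1319 and 1579.5 UMIs where none was seen, so shares of cells were also taken at equal depth. With each cell thinned to 1000 UMIs, any C1Q gene was seen in 53.8% of the myeloid-like cells (47.0 to 60.6, 119 of 221 cells, 34 shallower cells left out) and 60.1% (53.3 to 66.6, 134 of 223 cells, 57 left out). Without thinning the shares were 64.3% and 69.3%, and at 2000 UMIs, which 98 and 104 cells reached, the order of the libraries turned, to 73.5% (63.6 to 81.9) and 62.5% (52.5 to 71.8). In blood endothelial-like cells, which should lack these genes, thinned cells gave 0 of 1000, which allows a share of cells with a UMI of up to 0.3% (3 counts, the floor used wherever a count is 0), and 4 of 1636 (0.245%), and unthinned cells 0.294% and 0.979% at a median of 4005 and 3124 UMIs. The 10% of myeloid-like cells with most C1Q UMIs held 44.9% and 49.6% of them, and the highest cell had 46 and 71.

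**Figure D1:**
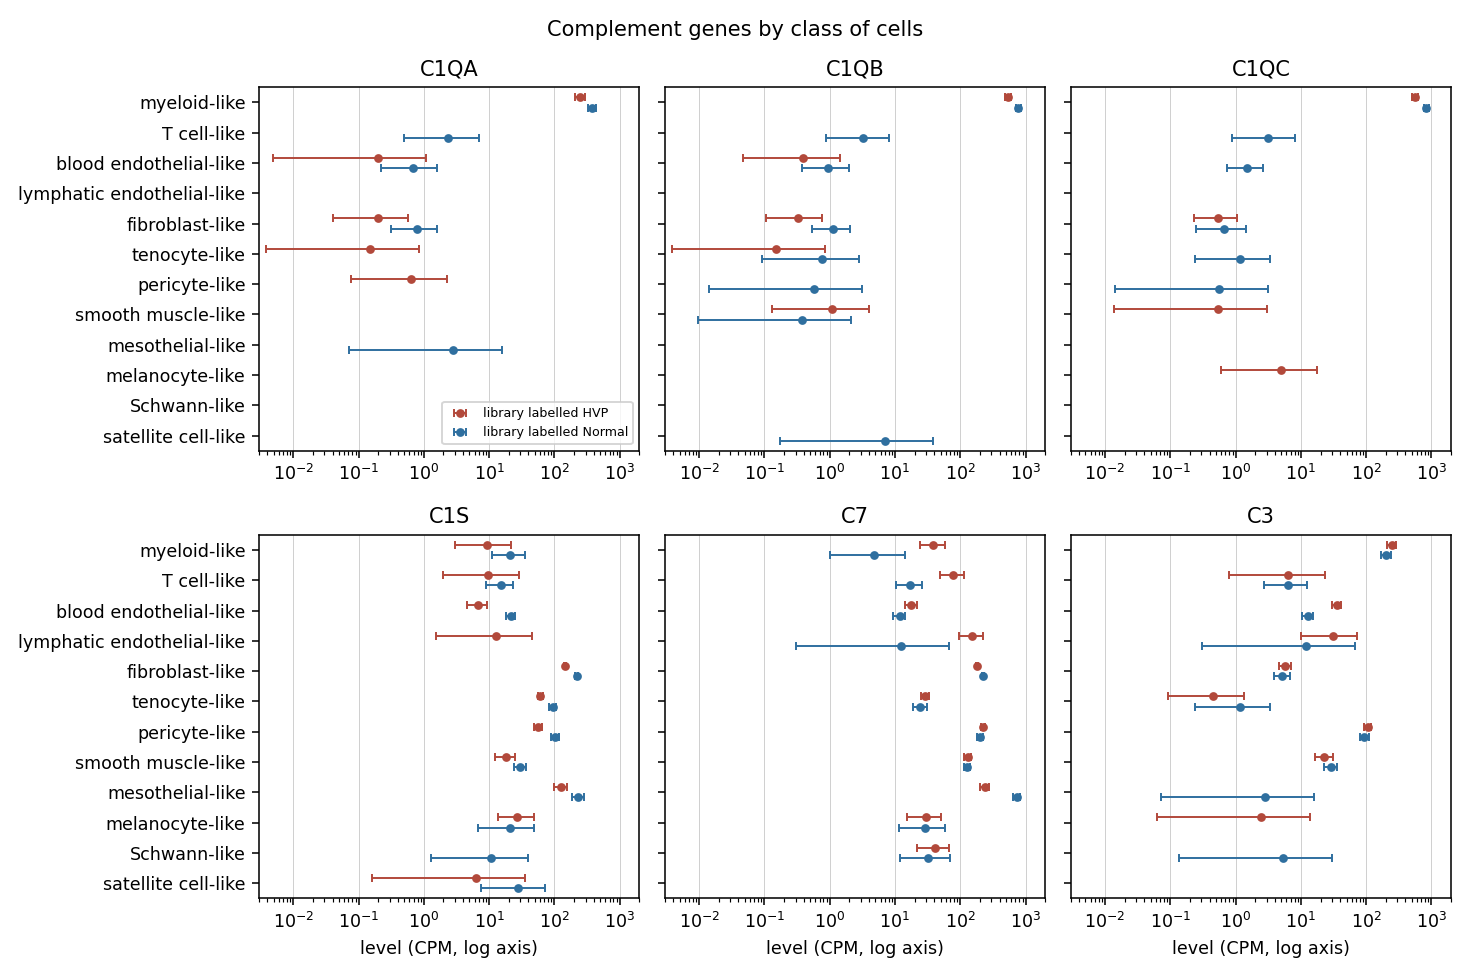
Levels of 6 complement genes (CPM, log axis) in named classes of cells of the HVP-labelled library (red) and the Normal-labelled library (blue), with 95% Poisson intervals for counting error; classes without a UMI have no point. C1QA, C1QB and C1QC reach 245 to 831 CPM in the myeloid-like class alone, C1S and C7 are high in fibroblast-like and mesothelial-like cells, and C3 is highest in myeloid-like and pericyte-like cells.

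The myeloid-like cells were clustered again, without complement genes, to see where among them C1Q was high. This gave 3 clusters in the HVP-labelled library and 5 in the Normal-labelled library. In the HVP-labelled library the C1Q sum was lowest in cluster 1 (99 cells, led by RGL1) at 789 CPM (653 to 944). It was intermediate in cluster 2 (79 cells, led by EGFR and PLCL1, with LYZ, COL28A1, JCHAIN and FLT3) at 1329.5 CPM (1195 to 1475), and highest in cluster 3 at 2019.7 CPM (1782 to 2280). COL28A1 was also a leading gene of the pericyte-like clusters. Cluster 2 was the deepest, at a median of 2685 UMIs against 1240 and 1551 UMIs in clusters 1 and 3. The part of other cells in it was not tested. Cluster 3 (77 cells) was led by the chemokine gene CCL17, SPP1 (osteopontin), MMP9 and NOS2, which makes nitric oxide in activated macrophages. No intervals of these clusters overlapped.

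Levels ranged more widely in the Normal-labelled library. Cluster 3 (53 cells, led by LY6CLEL, CCL17 and the osteoclast and macrophage genes ACP5 and CTSK) had the highest C1Q sum, 3270.4 CPM (2965 to 3598), with C1Q in 94.3% of its cells. Cluster 2 (66 cells, led by GLI2, SLIT2 and the muscle filament gene DES) had 2699 CPM (2456 to 2958) and cluster 1 (90 cells, led by GFOD1 and IL1R2) had 2072 CPM (1800.2 to 2374). Cluster 4 (38 cells) fell below these at 878 CPM (732 to 1043). It was led by S100A12 and SAA and had the granulocyte receptor CSF3R at 1316 CPM. Cluster 5 (33 cells, led by LGALS2 and by CCR7, a chemokine receptor of migrating dendritic cells) was lowest at 247 CPM (148 to 385), with C1QB at 1 UMI, MARCO at 0 and MPEG1 at 973 CPM. In clusters led by CCL17, then, the C1Q sum was the highest of each library. C1QA alone was instead highest in cluster 2 of each, with intervals that overlapped those of cluster 3. It was at 315 CPM (251 to 389.5) against 271 CPM (189 to 377) in the HVP-labelled library. In the Normal-labelled library it was at 629 CPM (515 to 760) against 575 CPM (451 to 722). The parts were not named as cell types, and their order was not tested because each came from 1 library.

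**Figure D2:**
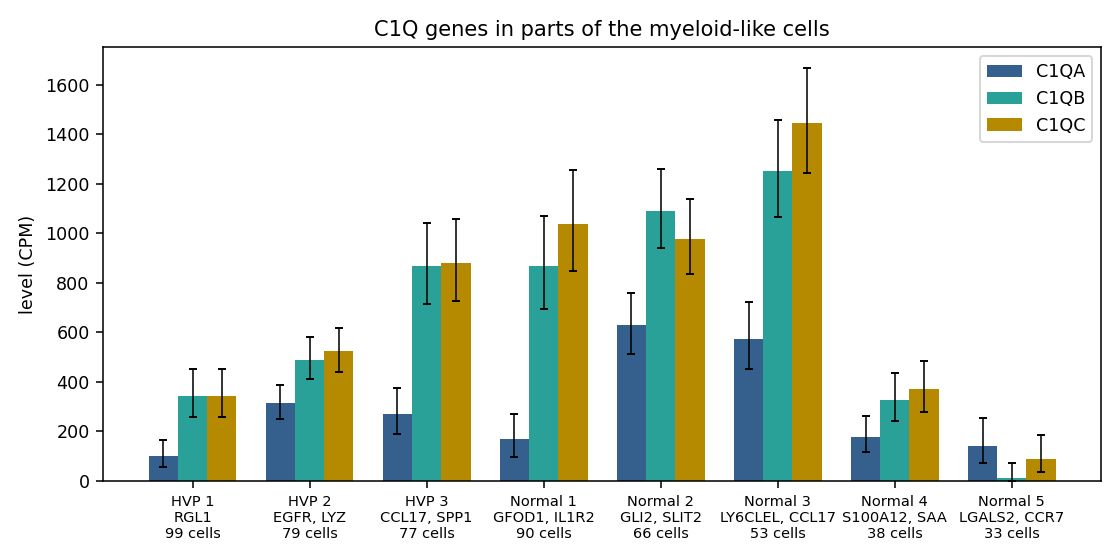
Levels of C1QA, C1QB and C1QC (CPM, bars with 95% Poisson intervals for counting error) in the clusters of myeloid-like cells of the HVP-labelled library (HVP 1 to 3) and the Normal-labelled library (Normal 1 to 5), each with leading genes and its number of cells. The C1Q sum is highest in the CCL17-led clusters (2019.7 CPM in HVP 3 and 3270.4 CPM in Normal 3) and lowest in Normal 5 at 247 CPM.

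Setting the libraries side by side, the C1Q sum in the myeloid-like class was 1.48 times (1.35 to 1.62) as high in the Normal-labelled library as in the HVP-labelled library. C1QA, C1QB and C1QC gave ratios of 1.54, 1.44 and 1.49. The makeup of the class also differed, since the 2 libraries gave different clusters within it. CSF3R was 414 CPM in the class of the Normal-labelled library and 186 CPM in that of the HVP-labelled library. In the Normal-labelled library the cluster with the highest CSF3R, cluster 4 at 1316 CPM, had a C1Q sum of 878 CPM, below those of clusters 1 to 3. The part of this makeup in the ratio was not tested. The ratio fell to 1.24 with finer clusters (resolution 0.5). It rose to 2.08 with a mitochondrial filter (300 to 4000 genes and under 5% mitochondrial UMIs). That filter left 48 myeloid-like cells in the HVP-labelled library and 108 in the Normal-labelled library. Summed over all kept cells the ratio was 2.29 (2.09 to 2.50), a value that mixes the myeloid-like share of each library with the C1Q level in the class. Outside the myeloid-like class, on 67 UMIs (Normal-labelled library) and 29 UMIs (HVP-labelled library), the ratio was 3.13 (2.00 to 5.03). In the Normal-labelled library these UMIs include those of 4 cells with at least 3 C1Q UMIs, 3 of which had at least 2 myeloid markers. The source of the UMIs outside the class was not tested.

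C1S had the opposite distribution, with 94.8% (93.9 to 95.6) of its 2962 UMIs in stromal-like cells of the HVP-labelled library and 89.8% (88.6 to 90.9) of 2773 UMIs in those of the Normal-labelled library. It was at 145 CPM (139 to 151) and 219 CPM (209 to 229) in fibroblast-like cells. Mesothelial-like cells, which form the surface layer of the peritoneum, stood level with fibroblast-like cells, at 126 CPM (99.3 to 156) and 231 CPM (183 to 286). Tenocyte-like cells had 61.3 and 94.9 CPM and pericyte-like cells 56.0 and 103 CPM, neighbours in the order whose intervals overlapped. Smooth muscle-like cells were lower, at 18.0 and 29.98 CPM, and the myeloid-like class had only 5 and 13 UMIs, 9.14 and 21.0 CPM.

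C1S was spread thinly over many cells. The highest cell had 13 UMIs in the HVP-labelled library and 25 in the Normal-labelled library. Thinned to 1000 UMIs, 12.6% and 18.3% of fibroblast-like cells had a UMI, against 0% and 1.69% of T cell-like cells, the background class. Unthinned shares were 48.3% and 47.6% in fibroblast-like cells at a median of 5541 and 3709 UMIs, and 2.73% and 3.503% in T cell-like cells at 2246.5 and 2223 UMIs.

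C7 was also a stromal gene, with 91.5% (90.6 to 92.4) of 4189 UMIs and 86.6% (85.4 to 87.8) of 3199 UMIs in stromal-like cells. With finer clusters (resolution 0.5), where a C7-rich cluster described below had no name, these shares were 57.9% and 47.9%. Mesothelial-like cells had the highest level of any named class, 238 CPM (202 to 280) in the HVP-labelled library and 731 CPM (645 to 826) in the Normal-labelled library, although these were only 101 and 93 cells. Pericyte-like cells followed with 221 and 201 CPM, fibroblast-like cells with 179 CPM (172 to 186) and 222 CPM (212 to 232), and smooth muscle-like cells with 131 and 129 CPM. Tenocyte-like cells, at 28.7 and 24.5 CPM, were well below the other stromal classes. Intervals overlapped between mesothelial-like and pericyte-like cells in the HVP-labelled library and between fibroblast-like and pericyte-like cells in the Normal-labelled library.

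Outside stroma and mesothelium C7 was mostly low. Blood endothelial-like cells had 90 UMIs in 55 of 1022 cells (17.6 CPM) and 87 UMIs in 48 of 1737 cells (11.7 CPM). An exception was the unnamed cluster of 77 cells of the Normal-labelled library, led by PDZRN4 and TCF24, with 47 UMIs in 23 cells (205.5 CPM, 151 to 273). Other classes rested on few cells. The myeloid-like class of the HVP-labelled library had 21 C7 UMIs in 7 cells, 15 of them in 1 cell, and that of the Normal-labelled library had 3 UMIs. T cell-like cells of the HVP-labelled library had 24 UMIs in 3 cells, and all 24 UMIs of its lymphatic endothelial-like class came from 1 cell. Thinned to 1000 UMIs, C7 was seen in 11.7% and 14.3% of fibroblast-like cells and in 2.91% and 1.02% of T cell-like cells. The unthinned shares were 24.1% and 26.1% in fibroblast-like and 2.73% and 3.18% in T cell-like cells. In mesothelial-like cells the thinned share was 23.8% and 45.7%.

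C7 was more concentrated in single cells than C1S. A cell could hold up to 47 and 37 C7 UMIs, and the 101 and 55 cells with 10 or more held 40.6% and 26.0% of all C7 UMIs. A count of 150 and 167 cells held 50% of the C7 UMIs, where C1S needed 491 and 411 cells.

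The 3 fibroblast-like clusters of each library paired by their 50 leading genes. Cluster 1 of the HVP-labelled library and cluster 0 of the Normal-labelled library shared 30 of them, including the receptor gene RET, clusters 3 and 4 shared 38, including the signalling ligand WNT2, and clusters 5 and 8 shared 29, including the hormone receptor gene FSHR. C7 was highest in the RET-led pair, at 335 and 358 CPM, lower in the WNT2-led pair at 106 and 111 CPM, and lowest in the FSHR-led pair at 36.2 and 21.0 CPM. C1S had another order, highest in the WNT2-led pair at 231 and 378 CPM, then 129 and 168 CPM in the RET-led and 76.1 and 103 CPM in the FSHR-led pair. Among the fibroblast-like clusters the 2 genes thus favoured different ones, in the same order in the 2 libraries. Neither gene was confined to these clusters.

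At a finer resolution (0.5, chosen among the alternatives) a C7-rich cluster was set apart in each library. It was picked as the cluster with the highest C7 level, with small and mesothelial-like clusters left out. The cluster was thus chosen by C7, and its C7 values are descriptions only. In the HVP-labelled library it had 307 cells, 4.50% of those kept, and held 33.6% (32.2 to 35.0) of C7 UMIs at 887 CPM (841 to 934), 10.9 times (10.2 to 11.6) the level in all other cells. Its counterpart in the Normal-labelled library had 464 cells, 6.97%, and held 38.6% of C7 UMIs at 786 CPM (743 to 831), 10.0 times that elsewhere. A C7 UMI was found in 64.5% and 61.4% of its cells. Nearly all came from the RET-led clusters, 306 and 449 cells.

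This C7-rich cluster shared 30 of 50 leading genes between the libraries. Among them were CLDN1, a tight junction protein, at 223 and 108 CPM, F3, the tissue factor that starts blood clotting, at 248 and 175 CPM, and G0S2, an inhibitor of triglyceride breakdown, at 304 and 408 CPM. SERPIND1 and the apolipoprotein gene APOC3 were also shared. Fibroblast markers went both ways, with COL1A1 at 0.354 and 0.514 times and PDGFRA at 1.98 and 1.87 times the level in other cells. The mesothelial markers also differed, with LRRN4 at 2.07 and 2.16 times the level elsewhere and KRT18 at 0 and 1 UMI. Of the adipocyte markers, PLIN1 (59.3 and 6.31 times), CIDEC (4.25 and 2.82 times) and PNPLA2 (1.80 and 2.00 times) were higher than elsewhere, and ADIPOQ (0.173 and 0.160 times) and FABP4 (0.354 and 0.287 times) were lower. CIDEC had only 13 and 14 UMIs, in under 10% of the cells. The cluster thus had fewer than 3 markers of any class that met the naming rule and was left unnamed, and C1S in it was 148 and 160.3 CPM.

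**Figure D3:**
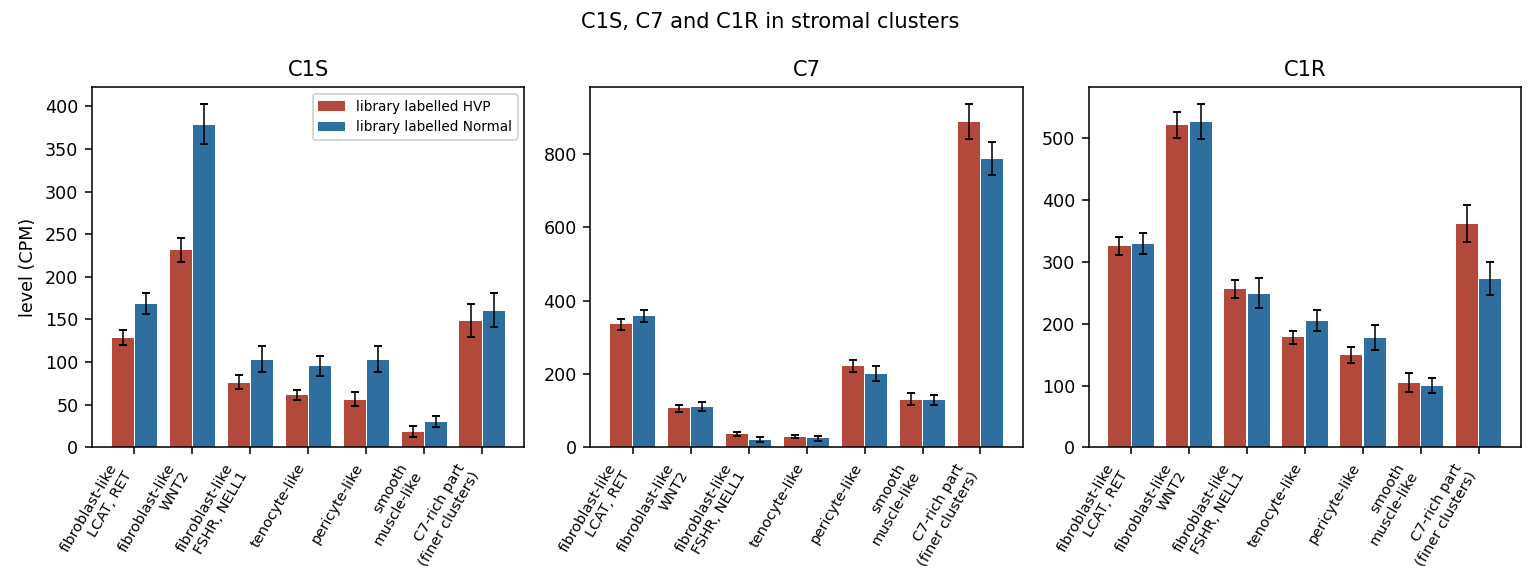
Levels of C1S, C7 and C1R (CPM, bars with 95% Poisson intervals for counting error) in paired stromal clusters of the HVP-labelled library (red) and the Normal-labelled library (blue), and in the C7-rich cluster found at finer resolution, whose cells are also in the RET-led cluster. C7 is at 887 and 786 CPM in the C7-rich cluster, which was picked for its C7 level, while C1S and C1R peak in the WNT2-led fibroblast-like cluster.

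C3, the central component, was neither a myeloid nor a stromal gene alone. Its level was highest in the myeloid-like class, at 245 CPM (205 to 290) and 201 CPM (168 to 240.0), and next in pericyte-like cells at 105 CPM (94.2 to 117) and 93.4 CPM (79.7 to 109). As pericyte-like cells were more numerous, they held 38.8% and 30.6% of the C3 UMIs, against 15.5% and 23.2% in the myeloid-like class. Fibroblast-like cells had only 5.69 and 5.20 CPM and mesothelial-like cells 0 and 1 UMI, both classes with high C1S and C7. Pericyte-like cells had high C3 and C7 together. Thinned to 1000 UMIs, C3 was seen in 20.4% and 18.4% of myeloid-like and 9.47% and 7.68% of pericyte-like cells.

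Blood endothelial-like cells had C3 at 35.5 and 12.7 CPM, and the clusters among them differed. A cluster of 175 cells in the HVP-labelled library, led by MARCH1 and KCNMB2 and with the mannose receptor gene MRC1, reached 106 CPM (78.9 to 139). An unnamed cluster of 77 cells in the Normal-labelled library, in which MARCH1 and KCNMB2 also led, had 74.3 CPM (43.3 to 119). The largest endothelial cluster of the Normal-labelled library, 1148 cells, had 3.60 CPM. Within the myeloid-like class the order of C3 over clusters of the Normal-labelled library was mostly within counting error. Cluster 5 was lowest in C3 and C1Q, with C3 at 51.9 CPM (14.1 to 133) on 4 UMIs. C3 was 109.6 (54.7 to 196), 189.8 (130 to 268) and 233 CPM (157 to 333) in clusters 1, 2 and 3, with intervals that overlapped. The S100A12-led cluster 4 had the highest C3, 329 CPM (243 to 436), beside a C1Q sum of 878 CPM. Its C3 interval overlapped those of clusters 2 and 3. In the HVP-labelled library C3 was 172, 285 and 248 CPM in clusters 1, 2 and 3, with intervals that overlapped.

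C6 was close to absent, with 13 UMIs in 11 cells of the HVP-labelled library and 11 UMIs in 11 cells of the Normal-labelled library. Of these, 7 and 2 UMIs were in fibroblast-like cells. None was in the myeloid-like class, where the floor of 3 counts corresponds to 5.48 and 4.83 CPM and the upper Poisson limits were 6.74 and 5.94 CPM. The highest ratios to other cells rested on 2 UMIs each, 40.8 (4.39 to 187) in lymphatic endothelial-like and 15.8 (1.70 to 72.4) in melanocyte-like cells of the HVP-labelled library and 16.6 (1.75 to 80.2) in mesothelial-like cells of the Normal-labelled library. In the other library these classes had 0, 1 and 1 UMI.

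Against all genes, a level at least 2-fold higher in a class than in all other cells was common, and the members' counts are read against that. Of genes with at least 20 UMIs in all, 18.4% were at least 2-fold higher in the myeloid-like class of the HVP-labelled library and 16.2% in that of the Normal-labelled library, and of the 6 members with enough UMIs (C6 had too few) 4 were, C1QA, C1QB, C1QC and C3, in each. In fibroblast-like cells the share of all genes was 6.54% and 8.63%, and 2 of 6 members were higher, C1S and C7, in each. In pericyte-like cells it was 9.96% in the HVP-labelled library, where C3 and C7 passed, and 8.44% in the Normal-labelled library, where C3 passed. Since the genes were chosen with earlier results of these data known, these counts describe them only.

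Between the libraries C1S was higher in the Normal-labelled library in each paired stromal cluster, while its neighbour C1R was nearly level in the fibroblast-like pairs and had smaller ratios than C1S in the others. The fibroblast-like clusters were compared pair by pair, because the leading genes of cluster 1 of the HVP-labelled library included the adipocyte gene PLIN1 and none of its own markers. The ratio of the Normal-labelled library to the HVP-labelled library for C1S was 1.31 (1.18 to 1.45) in the RET-led, 1.64 (1.50 to 1.78) in the WNT2-led and 1.35 (1.12 to 1.63) in the FSHR-led pair. It was 1.55 (1.32 to 1.82) in tenocyte-like, 1.83 (1.48 to 2.26) in pericyte-like and 1.84 (1.33 to 2.54) in mesothelial-like cells. Blood endothelial-like cells, low in C1S at 21.3 and 6.66 CPM (Normal-labelled library first), had a larger ratio, 3.20 (2.20 to 4.78). The C1Q sum, used above as background in these cells, also had a large ratio there, 5.278 (1.595 to 27.46) at 3.10 and 0.588 CPM. Whether the C1S UMIs of blood endothelial-like cells were their own was not tested, nor was the cause of the difference in C1S. For C1R the 3 fibroblast-like pairs gave 1.01, 1.01 and 0.973, smooth muscle-like cells 0.948, tenocyte-like cells 1.15 (1.04 to 1.28), pericyte-like cells 1.19 (1.03 to 1.38) and mesothelial-like cells 1.38 (1.11 to 1.72). Pericyte-like cells of the HVP-labelled library were led by the adipocyte gene ADIPOQ among others, and shared 34 of 50 leading genes with those of the Normal-labelled library. The smooth muscle-like clusters were a poorer match, with 11 of 50 shared.

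C7 differed little between the libraries in most stromal pairs. The ratio was 1.07 (1.00 to 1.14) in the RET-led and 1.05 in the WNT2-led pair. Tenocyte-like cells gave 0.852, pericyte-like cells 0.911 and smooth muscle-like cells, whose clusters shared only 11 of 50 leading genes, 0.988. The ratio was lower in the FSHR-led pair, 0.581 (0.391 to 0.842). In the C7-rich cluster, picked in each library for its C7 level, it was 0.887 (0.821 to 0.958). Mesothelial-like cells stood apart at 3.07 (2.50 to 3.78), with a C7 UMI in 52.5% and 72.0% of cells. The stromal-like class as a whole gave 1.20 (1.14 to 1.26), a value that also moved with the share of each cluster in it, and the fibroblast-like class 1.24 (1.17 to 1.32). With the mitochondrial filter, under which the C7-rich cells had no class name, the fibroblast-like value turned to 0.932. All kept cells together gave 1.03 (0.981 to 1.08).

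C3 differed most in endothelium. Its ratio was 0.822 (0.639 to 1.06) in the myeloid-like class and 0.888 (0.733 to 1.07) in pericyte-like cells, both with intervals that included 1, and 0.358 (0.276 to 0.461) in blood endothelial-like cells, whose clusters differed between the libraries. The unnamed cluster of 533 cells with blood endothelial markers in the HVP-labelled library was outside this class. A shallow cluster of 216 cells of the Normal-labelled library was inside it. The cluster led by MARCH1 and KCNMB2, described above for its C3, was inside the class in the HVP-labelled library (175 cells). In the Normal-labelled library the unnamed cluster with these leading genes (77 cells) was outside. The part of these clusters in the ratio was not tested. In myeloid-like cells 8.72% of all genes with at least 20 UMIs over both libraries differed by at least 2-fold in either direction, and of the 5 members with enough UMIs 1 did, C7, at 0.126 (0.0241 to 0.422) and from few cells. In stromal-like cells the share was 5.95%, and 1 of 4 members passed, C1QB, on 8 and 14 UMIs. Chromosome Z genes, among which C7 lies, had a median log2 ratio of -0.00027 in stromal-like cells (525 genes) against 0.03 for other genes (10330 genes).

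**Figure D4:**
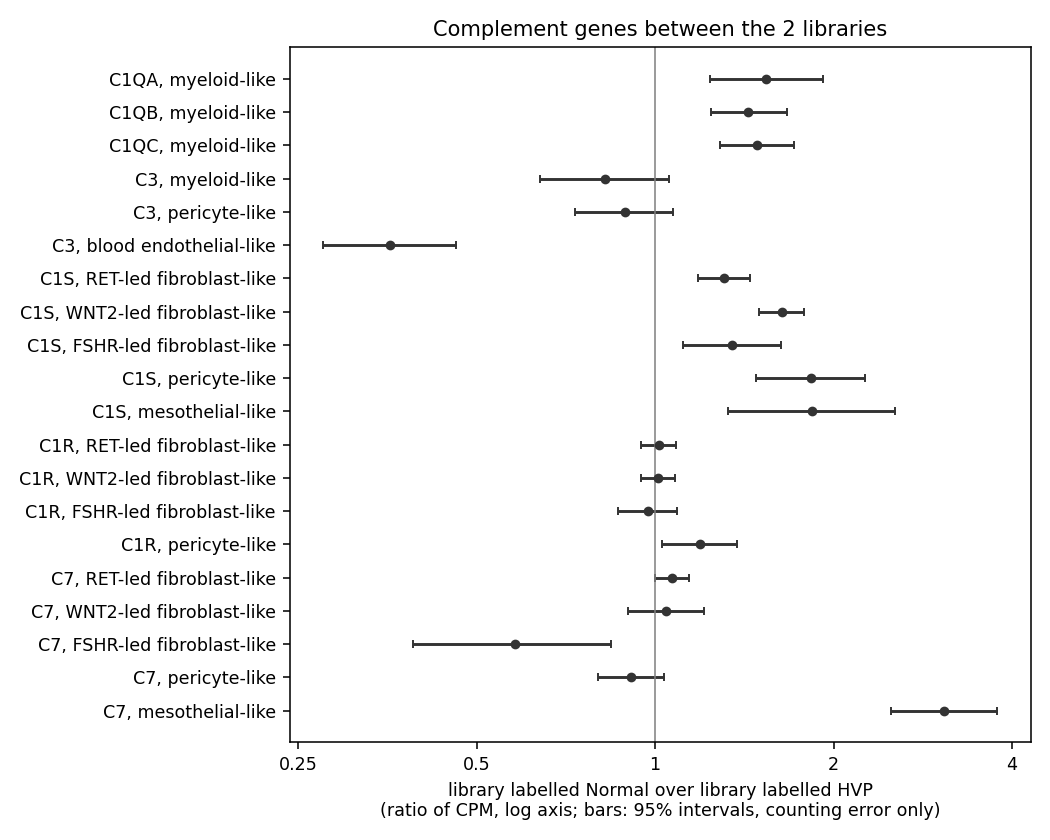
Ratio of the level in the Normal-labelled library to that in the HVP-labelled library (log axis) for complement genes in classes and paired clusters, with 95% intervals for counting error and a line at 1. The 3 C1Q genes lie between 1.44 and 1.54, C1S lies above 1 in every pair shown, C1R of fibroblast-like pairs lies between 0.973 and 1.01, and C7 is highest in mesothelial-like cells at 3.07.

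Other complement genes were described over the same classes. Of 69 symbols of the pathway, 40 matched a feature, 33 of them not among the 7 members, and 26 of these had at least 20 UMIs in each library. In the myeloid-like class 7 of 26 in the HVP-labelled library and 7 of 26 in the Normal-labelled library were at least 2-fold higher than elsewhere, against 18.4% and 16.2% of all genes. VSIG4, a macrophage receptor that binds C3b in mammals, was at 227 and 187 CPM, or 31.7 and 17.5 times the level elsewhere. Most of its UMIs still lay outside the myeloid-like class, 252 of 376 and 277 of 393. C4, the substrate of C1s, was at 128 and 124 CPM, 12.7 and 8.44 times that elsewhere. The collectin gene COLEC12 was at 768 and 487 CPM. Fibroblast-like cells, at 178 and 144 CPM, held more of its UMIs, 2694 of 3566 and 1305 of 1851. ITGB2, a subunit of complement receptors on leukocytes, was at 84.1 and 80.6 CPM. In the Normal-labelled library T cell-like cells also had ITGB2, at 85.1 CPM. The levels of the C1q genes and of C4 were thus highest in the same class, and those of C1R and C1S in fibroblast-like or mesothelial-like cells. The myeloid-like class held only 70 of 424 and 77 of 459 C4 UMIs, though, and blood endothelial-like cells held 103 and 183. C1R was also present in the myeloid-like class, at 89.6 and 87.0 CPM.

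In fibroblast-like cells 7 of 26 were at least 2-fold higher in each library, against 6.54% and 8.63% of all genes. C1R was at 365 and 374 CPM there. Mesothelial-like cells had VTN, vitronectin, a plasma protein that blocks the attack complex, at 275 and 739.7 CPM, and C8G, a chain of the C8 component, at 81.0 and 159 CPM. Blood endothelial-like cells had C4BPM at 553 and 369 CPM, its highest level in any named class. CFD, the protease of the alternative pathway, was widespread, at 1886 and 2472 CPM in these cells, 3347 and 2628 CPM in lymphatic endothelial-like and 2580 and 4331 CPM in melanocyte-like cells. The lectin genes COLEC10 and COLEC11 were highest in pericyte-like (90.8 and 80.4 CPM) and smooth muscle-like cells (149 and 157 CPM). MBL2, MASP1, MASP2, C5, C8A, C8B and CFI had under 20 UMIs in at least 1 library.

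The genes whose levels most resembled those of C1QA over 25 class sums (the named classes of both libraries, which share libraries and differ in depth) included RNASE6, with a Pearson correlation of 0.961 on the log scale, TLR4 at 0.954 and MARCO at 0.946. For C1S they were TGFB2 at 0.864 and AOX1 at 0.834, and for C3 PPM1J at 0.845 and RAMP3 at 0.826. For C7 PCDH9 at 0.828 and MEIS2 at 0.796 came close, and no gene was as near to it as those of C1QA were to C1QA. C1QA was at most 2.85 CPM in any named class but the myeloid-like, so its correlations rest largely on that class. C7 was spread over many classes, so the 2 sets of correlations are not alike in kind. Among the members C1QA and C1QC gave 0.955, C1S and C7 0.576, and C1QA and C7 -0.0825. These correlations are descriptions over classes that are not independent.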

How the data were processed

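The deposited files held UMI counts per gene and barcode (10x Genomics 3′ chemistry), which per the submitters' processing notes and the study's methods the authors made with Cell Ranger 7.1.0 (STAR) on GRCg7b. No cell annotation was used. Barcodes with more than 500 genes were kept, and each library was clustered with Seurat 5.3.0 in R 4.3.3 (2000 variable genes without complement genes, 20 components, resolution 0.2). Clusters mixed between leukocyte types were clustered again at 0.5, as were, after the clusters were seen, endothelial clusters led by another type. A cluster was named "like" a type when at least 3 fixed markers had a ratio of at least 1.5 to other cells and a UMI in at least 10% of its cells, and that type led in markers. The ratio was chosen after the clusters were seen.

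Counts were summed per class (CPM, with exact Poisson intervals; Clopper-Pearson for shares, conditional binomial for ratios, all 95%, scipy 1.17.1). With 1 library a group there was no test, SD or p-value. Cells were thinned to 1000 UMIs to compare shares of cells. The ratio script was tested on simulated data. Named genes were all 7 members, the detected complement list and the 5 genes of highest correlation. Members and lists were chosen with earlier results of these data known. Scrublet (scanpy 1.11.5) called 5 of 7157 barcodes doublets in the HVP-labelled library, too few to have worked, and 133 of 6981 in the Normal-labelled library, and doublets were kept. Alternatives varied the gene minimum, mitochondrial filter, resolution, joint clustering, class calls of single cells, thinning, UMI minimum and doublets. Sequences were not used here.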

Additional observations from a re-analysis of the deposited data

How the results depend on the processing

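Of 146 alternative values, 81 stayed within the counting interval or within 1.5 times the count, 64 moved beyond it and 1 changed direction. No paired analysis was possible because each group has 1 library. With more than 1000 genes per cell the C1Q share of the myeloid-like class was 94.6% in the HVP-labelled library and 65.2% in the Normal-labelled library, where clusters with C1Q UMIs lost their name. It was 88.4% (HVP-labelled library) when cells were limited to 300 to 4000 genes and less than 5% mitochondrial UMIs, 88.9% and 90.0% with classes from the markers of single cells, and 96.1% (Normal-labelled library) without the 5% of barcodes with the highest Scrublet scores, an alternative added after seeing the data. The stromal-like share of C7 fell because the C7-rich cells had no name at finer settings. In the order HVP-labelled, then Normal-labelled library it was 55.1% and 54.6% with the mitochondrial filter, 57.9% and 47.9% at resolution 0.5, 57.8% and 47.6% at resolution 1.0, 56.7% and 49.0% with both libraries clustered together, and 90.1% and 85.2% with single-cell classes. Without the top Scrublet scores it was 93.4% (HVP-labelled library), and with mesothelial-like cells counted in, also added later, 95.1% and 94.6%. The C1S share was 80.3% and 88.3%, 86.9% and 80.6%, 86.6% and 80.6%, and 86.5% and 81.0% under the first 4 of these settings, 96.0% and 91.0% without the top scores and 97.5% and 92.7% with mesothelial-like cells. The C1Q ratio between libraries was 2.08 with the mitochondrial filter, 1.24 at either finer resolution, 1.25 with complement genes among the variable genes, 1.34 with single-cell classes and 1.28 with cells thinned to 2000 UMIs, always above 1. The stromal-like C7 ratio was 1.05 with the mitochondrial filter, 1.11 and 1.10 at resolutions 0.5 and 1.0 and 1.14 clustered jointly, and the fibroblast-like one turned to 0.932 with the mitochondrial filter. The C1S ratio stayed within its interval in all 15 alternatives.

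Shares of cells depended on thinning. At 2000 UMIs and unthinned, any C1Q in myeloid-like cells was 73.5% and 64.3% (HVP-labelled library), and 62.5% and 69.3% (Normal-labelled library), so the order of the libraries turned at 2000 UMIs. C7 in fibroblast-like cells was 15.5% and 24.1%, and 20.2% and 26.1%, and C1S 25.1% and 48.3%, and 32.0% and 47.6%. With at least 1 UMI in place of 20, genes at least 2-fold higher numbered 2419 and 2673 in fibroblast-like cells (from 1016 and 1308) and 2800 and 2531 in pericyte-like cells (from 1548 and 1279). Between libraries they numbered 5742 at 1 UMI and 174 at 50 UMIs in myeloid-like cells (from 570), and 5702 and 442 in stromal-like cells (from 907). Depth limits C6 most, with 13 and 11 UMIs, and 1 library per group leaves the spread between birds unknown.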
